A study of Mus musculus with 7 samples.

Results

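The genes described here are 10 regulators of mitochondrial content and fuel use in mouse muscle cells: the coactivators Ppargc1a and Ppargc1b (PGC-1 alpha and beta), the estrogen-related receptors (ERR) Esrra, Esrrb and Esrrg, the peroxisome proliferator-activated receptors (PPAR) Ppara, Ppard and Pparg, the nuclear respiratory factor Nrf1, and Tfam, the mitochondrial transcription factor. They were chosen by name, and all 10 were found among the 37975 genes of the deposited expression table. RNA was measured in primary myoblasts, grown from satellite cells that had been sorted from mice aged 4 to 6 weeks, and both RNA samples carried an empty retroviral vector. One was taken in growth medium, and the other as myotubes after 48 hours in medium with 5% horse serum. Binding of MyoD, the transcription factor that sets the muscle lineage, was mapped by chromatin immunoprecipitation (ChIP) in a further sample of 2-day myotubes, which its description takes from another deposited sample and for which no vector is named. The number of animals or cultures pooled and the mouse strain, not given in the sources used here, limit these groups as models, and the 4 histone samples of the 7 in the series were not analysed here.

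PGC-1 coactivators do not bind DNA themselves. They are recruited by ERR and PPAR receptors and by NRF1 to genes of respiration, fatty acid oxidation and mitochondrial biogenesis. TFAM, itself a target of NRF1, packages mitochondrial DNA and takes part in its transcription. In adult muscle, PGC-1 alpha and ERR gamma are known for their part in oxidative fibres, PPAR alpha and PPAR delta for fatty acid use, and PPAR gamma as the master regulator of adipocytes.

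Each condition had 1 value per gene, in FPKM (sequenced fragments of a gene divided by its transcript length and by the size of the library), so no difference had a replicate check here. FPKM is per length, which lets levels be set side by side between genes. Changes are the authors' log2 fold changes of 2-day myotubes over growth myoblasts, with the standard error (SE) that their test statistic implies, and a gene is called where their adjusted p-value (q) was at most 0.05. The depth of the RNA libraries is unknown, since only FPKM were used. The authors' deposited table called 6 of 7 muscle markers higher, with summed levels of 2768 FPKM in growth myoblasts and 26159 in myotubes. The remaining muscle marker was Myod1, the gene of the factor mapped by ChIP. It was at 895 and 293 FPKM (log2 -1.61, SE 0.83, q = 0.154, authors' deposited table), lower in myotubes but not called. All 5 markers of proliferating myoblasts were called lower, from a sum of 331 to 46.3 FPKM. Markers of other cells had lower sums than the muscle markers in both conditions. In growth myoblasts and myotubes they summed to 7.90 and 1.47 FPKM for fibroblasts (5 genes, 1 called lower). For endothelial cells the sums were 4.71 and 0.431 (4 genes, 1 lower), with Pecam1 at 4.62 and 0.213. Cdh5, Kdr and Tek were each at or below 0.142 FPKM in both conditions. For immune cells the sums were 12.04 and 2.83 (4 genes, 2 lower), most of it Cd68 at 11.0 and 2.80. Cd14 was at 1.00 and 0 FPKM, Ptprc at 0 and 0.0224, and Emr1 at 0 in both conditions. In growth myoblasts Cd68 was thus above Ppargc1b (7.27) and Ppargc1a (6.96). Whether such other cells were present, and their part in the results, was not tested. In bulk RNA, fewer cells of a type and less RNA per cell cannot be told apart.

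Promoter sequences are shown for 5 regulators because they differ in their E-boxes and in whether a MyoD peak lay nearby. Not every E-box is a form that MyoD binds well. Each is the 250 bases before a gene start on the gene's own strand, from RefSeq (build GRCm38.p6), which had windows for 9 of the 10 genes. Capitals mark E-boxes (CANNTG) and the core GCATGCGC of the NRF1 site. Ppard is shown for its pair of CAGCTG E-boxes. Pparg, which also had a MyoD peak just before its 5′ end, is shown for the window of its first RefSeq start. That window holds no E-box, while those of its 2 other starts hold 1 each. Ppargc1a is shown for 6 E-boxes with no MyoD peak within 10 kb, and Esrra for its NRF1 core. Esrrg is shown as the only regulator that the authors' deposited table called. The windows are chr17:28232504-28232753 (plus strand), chr6:115360894-115361143 (plus), chr5:51567726-51567975 (minus), chr19:6921809-6922058 (minus) and chr1:187608756-187609005 (plus), in that order.
Ppard: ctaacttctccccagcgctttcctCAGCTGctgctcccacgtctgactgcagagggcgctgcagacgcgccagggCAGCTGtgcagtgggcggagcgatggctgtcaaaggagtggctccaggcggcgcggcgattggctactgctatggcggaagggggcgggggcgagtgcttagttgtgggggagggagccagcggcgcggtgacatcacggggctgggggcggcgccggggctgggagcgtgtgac
Pparg: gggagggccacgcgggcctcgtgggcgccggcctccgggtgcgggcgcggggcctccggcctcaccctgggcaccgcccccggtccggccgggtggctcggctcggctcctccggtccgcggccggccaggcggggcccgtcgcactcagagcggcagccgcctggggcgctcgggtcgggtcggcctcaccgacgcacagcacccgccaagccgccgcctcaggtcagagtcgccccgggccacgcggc
Ppargc1a: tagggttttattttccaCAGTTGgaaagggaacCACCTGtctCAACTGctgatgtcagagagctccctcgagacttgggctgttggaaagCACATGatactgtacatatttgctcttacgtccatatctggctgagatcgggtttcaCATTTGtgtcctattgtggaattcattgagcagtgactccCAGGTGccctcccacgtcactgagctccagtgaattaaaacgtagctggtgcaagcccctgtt
Esrra: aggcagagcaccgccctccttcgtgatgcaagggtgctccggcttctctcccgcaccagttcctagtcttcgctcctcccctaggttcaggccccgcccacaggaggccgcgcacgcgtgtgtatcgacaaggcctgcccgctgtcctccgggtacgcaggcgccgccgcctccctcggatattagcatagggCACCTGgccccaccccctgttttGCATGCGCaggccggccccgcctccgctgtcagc
Esrrg: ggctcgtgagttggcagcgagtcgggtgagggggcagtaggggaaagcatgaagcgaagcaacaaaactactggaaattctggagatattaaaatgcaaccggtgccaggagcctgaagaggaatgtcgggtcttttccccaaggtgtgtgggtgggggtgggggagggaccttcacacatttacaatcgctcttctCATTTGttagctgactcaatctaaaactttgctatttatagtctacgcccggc

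The regulators covered a graded range of levels, and the order of the 6 most abundant was the same in both conditions. Esrra stood first at 87.0 FPKM in growth myoblasts and 89.8 in myotubes, above 84.5% and 86.4% of all tested genes. Tfam followed at 82.3 and 54.1 FPKM, and Nrf1 at 40.2 and 26.1. Ppard held the middle at 16.1 and 12.5 FPKM. Both PGC-1 genes were low, Ppargc1b at 7.27 and 4.60 FPKM and Ppargc1a at 6.96 and 3.53. The scarcest, Pparg, Esrrb, Ppara and Esrrg, lay at or below 2.29 FPKM in both conditions. It was among them that the order changed: Esrrg went from rank 10 to rank 8 and Pparg from rank 7 to rank 9. With 1 value per condition, whether neighbours in this order differ beyond their spread is not known.

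**Figure D1:**
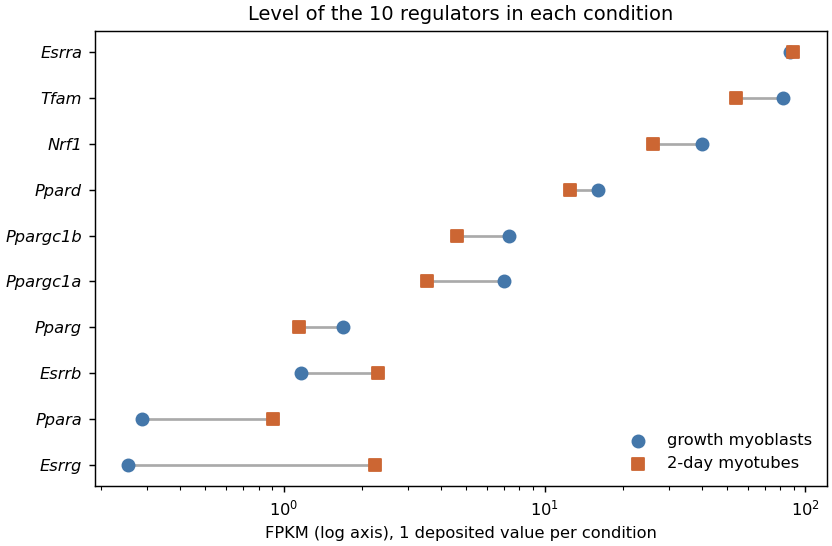
FPKM of each regulator (log axis) in growth myoblasts (circles) and 2-day myotubes (squares), 1 deposited value each, with a grey line joining the pair. Esrrg moves farthest, from 0.253 to 2.24 FPKM, and the 2 values of Esrra nearly coincide at 87.0 and 89.8.

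Among the regulators 9 were tested by the authors and 1, Esrrg, was called, upward. Over all 15966 tested genes the authors' deposited table called 23.9%, with 6.52% higher and 17.3% lower, beside 1 of 9 here. Higher genes were 27.3% of all calls, and 49.3% once every log2 fold change was centred on the median gene. None was called lower by the authors' Cuffdiff test, and at an unadjusted p below 0.05 there was 1 lower (Nrf1) and 1 higher (Esrrg), where 24.6% of all tested genes were lower and 8.88% higher. Ppara was left untested by the authors. Of the 9 tested, 6 had a log2 fold change below 0 and 3, all of them ERR genes, above 0, and 66.9% of all tested genes had a lower value in myotubes. The median log2((FPKM 2-day + 1)/(FPKM growth + 1)) of the 9 was -0.34, next to -0.37 over all tested genes with a mean of at least 1 FPKM.

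**Figure D2:**
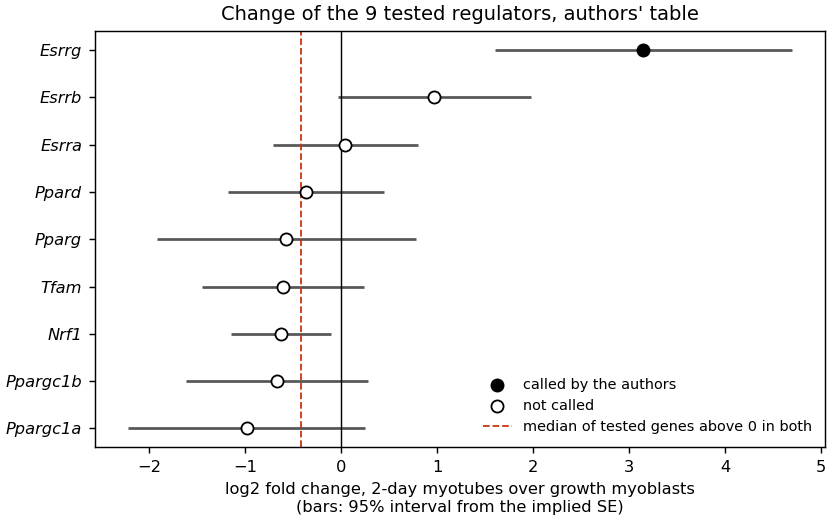
Log2 fold change of the 9 tested regulators from the authors' deposited table, with bars for the 95% interval from the implied SE; the solid line is at 0 and the dashed line at -0.41, the median of tested genes above 0 in both conditions. The bar of Esrrg, from 1.60 to 4.70, lies wholly above 0, that of Nrf1, from -1.14 to -0.10, wholly below, and the other 7 cross 0.

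Receptors of the ERR family were led by Esrra throughout. Esrra, a receptor through which PGC-1 acts on respiratory genes, had a log2 fold change of 0.05 (SE 0.39, q = 0.956) in the authors' deposited table. Its 95% interval ran from -0.71 to 0.80, and at that SE a change had to reach 0.97 to be called. Esrra shares its locus with the tested genes Prdx5, at 373 and 334 FPKM, and Trmt112, at 60.6 and 55.8, and strand-specific counting is not stated, so reads of overlapping genes may not be separable.

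Esrrg, the ERR receptor of oxidative muscle and heart, was at 0.253 FPKM in growth myoblasts and 2.24 in 2-day myotubes. It rose 8.86-fold (log2 3.15, SE 0.79, q = 0.000748, authors' deposited table). Even so, its myotube level exceeded that of only 20.4% of tested genes, after 1.67% in myoblasts. The size depended on how low values are treated: with 1 FPKM added to both values the log2 change was 1.37, and with 0.1 added it was 2.73.

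Esrrb, best known from pluripotent stem cells, was at 1.17 and 2.29 FPKM, and the authors' deposited table gave it a log2 fold change of 0.97 (SE 0.51, q = 0.165), short of a call. After centring all log2 fold changes on their median of -0.41, Esrrb passed (q = 0.0366), which makes 2 of 9 higher and 0 lower, where 9.94% of tested genes were then higher and 10.2% lower. Esrra made up 98.4% of the summed ERR level in myoblasts and 95.2% in myotubes. Esrrb went from 1.32% to 2.43% of that sum and Esrrg from 0.286% to 2.37%, while the sum itself was 88.5 and 94.3 FPKM.

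Both PGC-1 coactivators had lower values in myotubes, and neither was called. Ppargc1a, the inducible coactivator of mitochondrial biogenesis, had a log2 fold change of -0.98 (SE 0.63, q = 0.282) in the authors' deposited table. Its 95% interval ran from -2.22 to 0.25, and at this SE a change had to reach 1.59 to be called. Ppargc1b, its close relative, had a log2 fold change of -0.66 (SE 0.48, q = 0.356) in the authors' deposited table, with an interval from -1.61 to 0.28. The pair summed to 14.2 FPKM in myoblasts and 8.13 in myotubes. The third member of the family, Pprc1, a coactivator expressed in growing cells, was more abundant than both, at 62.8 and 33.9 FPKM, and fell by 0.89 on the log2 scale (SE 0.35, q = 0.0449, authors' deposited table). It made up 81.5% of the family's summed FPKM in myoblasts and 80.7% in myotubes, and its call was lost after centring (q = 0.381).

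Nrf1 and Tfam, the nuclear steps towards mitochondrial DNA, had close values of change. Nrf1, which binds promoters of respiratory chain genes, had a log2 fold change of -0.62 (SE 0.27, q = 0.0701) in the authors' deposited table. Tfam, the packaging factor of mitochondrial DNA, had -0.61 (SE 0.43, q = 0.338) there. After centring they stood at -0.21 and -0.19, so both lay near the general shift of these libraries. A copy of 7SK, a small nuclear RNA, lies in the Nrf1 locus and was at 0 and 1.90 FPKM.

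Ppard carried most of the PPAR level, 89.0% of the summed FPKM in myoblasts and 85.9% in myotubes. The fatty acid sensor that it encodes is the main PPAR of skeletal muscle, and its log2 fold change was -0.36 (SE 0.42, q = 0.597, authors' deposited table). Pparg was at 1.69 and 1.14 FPKM (log2 -0.57, SE 0.69, q = 0.620, authors' deposited table). Beside Pparg, the markers of adipocytes were at or near 0: of 9 listed, 5 (Plin1, Cidec, Retn, Cfd and Ucp1) were at 0 in both conditions, and all 9 summed to 2.83 and 1.39 FPKM, most of it Cebpa at 2.56 and 1.10. Adipoq was at 0.272 and 0 FPKM and Fabp4 at 0 and 0.228. Ppara, the PPAR of liver and oxidative tissues, was at 0.286 and 0.905 FPKM, and its interval of -1.35 to 4.67 on the log2 scale sets almost no limit on its change. PPAR levels summed to 18.0 and 14.5 FPKM.

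**Figure D3:**
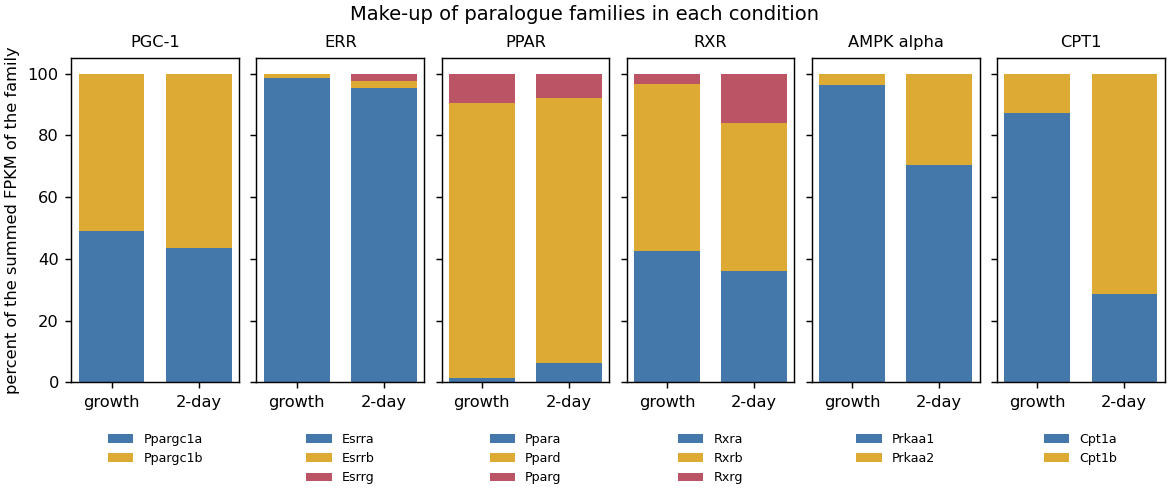
Share of each paralogue in the summed FPKM of its family (percent, stacked to 100) in growth myoblasts and 2-day myotubes, 1 value per condition, for the PGC-1, ERR and PPAR genes and for 3 families from the pathway lists. Esrra and Ppard dominate their families in both conditions, whereas Cpt1a gives way to Cpt1b, from 87.3% to 28.7% of the CPT1 sum.

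Among partners of these regulators the authors' deposited table called 3 of 25 tested genes higher (Prkag3, Prkaa2 and Rxrg) and 4 lower, beside 6.52% and 17.3% of all tested genes. After centring, 5 were higher and 0 lower, beside 9.94% and 10.2%, the additions being the coactivator gene Ncoa2 (12.9 and 23.4 FPKM) and the thyroid hormone receptor gene Thra (32.2 and 46.1). Prkag3, the muscle-specific gamma subunit of the energy sensor AMPK, went from 2.87 to 51.5 FPKM and rose 17.9-fold (log2 4.17, SE 0.57, q = 2.66e-11, authors' deposited table). Prkaa2, the AMPK alpha subunit that prevails in muscle, rose from 1.62 to 11.4 FPKM (q = 0.000505, authors' deposited table) and went from 3.79% to 29.6% of the summed alpha subunits, while Prkaa1, the other alpha subunit, made up 96.2% and 70.4% and was not called.

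Rxrg rose from 2.95 to 16.6 FPKM (log2 2.50, SE 0.47, q = 2.39e-06, authors' deposited table). RXR receptors are the obligate dimer partners of PPAR. The share of Rxrg in the summed RXR level went from 3.26% to 16.1%. Rxra was at 38.4 and 37.5 FPKM and Rxrb at 49.1 and 49.4, neither called. Those called lower were Ncoa3, a steroid receptor coactivator (14.1 to 5.83 FPKM), Gabpb1, a subunit of the respiratory factor NRF2 (43.2 to 18.8), Ncor1, a corepressor that opposes PGC-1 (175 to 121), and Pprc1, with q of 0.0143, 0.00529, 0.0393 and 0.0449 in the authors' deposited table. None of these 4 remained called after centring. The partner list had a median of -0.38 on the log2(FPKM + 1) scale, beside -0.37 for all tested genes.

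The machinery that works with TFAM on mitochondrial DNA had 2 of 13 tested genes called lower and 0 higher by the authors' Cuffdiff test, beside 17.3% and 6.52% of all tested genes. At an unadjusted p below 0.05 there were 3 lower and 0 higher, beside 24.6% and 8.88%. Dna2, a helicase and nuclease that also acts in nuclear replication, fell from 7.49 to 1.95 FPKM (log2 -1.94, SE 0.45, q = 0.000260, authors' deposited table). Polg2, the accessory subunit of the mitochondrial DNA polymerase, fell from 9.39 to 3.65 FPKM (q = 0.0473, authors' deposited table), a call lost after centring, which left 1 lower. The most abundant members, Lonp1, Polg and Ssbp1, were at 45.8 and 67.5, 65.7 and 61.8, and 42.4 and 24.2 FPKM and were not called. With a median of -0.41 the list lay close to all tested genes.

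Respiratory genes known as PGC-1 and ERR targets mostly had higher values in myotubes. The authors' deposited table called 6 of 23 tested higher and 1 lower, beside 6.52% and 17.3% of all tested genes, 22 had a log2 fold change above 0, and the median was 0.74 against -0.37 over all tested genes. Cox6a2, the muscle isoform of a cytochrome oxidase subunit, went from 41.3 to 677 FPKM, Cox7a1, another muscle isoform, from 15.2 to 100.2, and Ckmt2, the mitochondrial creatine kinase of sarcomeric muscle, from 4.77 to 25.4. Each rose, with q of 2.18e-07, 0.00242 and 0.00558 in the authors' deposited table. Alas1, the first enzyme of heme synthesis and a PGC-1 target, rose from 46.1 to 107 FPKM (q = 0.00203, authors' deposited table). Vegfa, the angiogenic factor that PGC-1 alpha can induce, fell from 149 to 78.1 FPKM (q = 0.00203, authors' deposited table). After centring 11 were called higher and 0 lower, beside 9.94% and 10.2%, and Vegfa was no longer called.

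Of 20 tested PPAR target and fatty acid genes, the authors' deposited table called 4 higher and 4 lower, beside 6.52% and 17.3% of all tested genes. Centring made these 9 and 3, beside 9.94% and 10.2%. Centring added, among others, the oxidation gene Hadha at 123 and 234 FPKM and the acyl-CoA thioesterase gene Acot2 at 8.55 and 27.4. Cd36, the fatty acid translocase, rose from 0.545 to 8.54 FPKM (log2 3.97, SE 0.66, q = 9.81e-08, authors' deposited table). Fabp3, the fatty acid binding protein of heart and muscle, rose from 15.4 to 131 FPKM, and Acsl1, which activates fatty acids to their CoA esters, from 13.6 to 59.6 (q = 0.000185 and 6.59e-06, authors' deposited table). The carnitine palmitoyltransferases, which admit fatty acids to mitochondria, had opposite calls for their liver and muscle isoforms. Cpt1a, the form of liver and many growing cells, fell from 47.8 to 8.01 FPKM, and Cpt1b, the muscle form, rose from 6.98 to 19.9 (q = 0.00114 and 0.0225, authors' deposited table).

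The other called falls in that list, beside its 4 called rises, were Angptl4, Plin2 and Pdk4. Angptl4, a secreted inhibitor of lipoprotein lipase, fell from 6.16 to 0.716 FPKM (log2 -3.11, SE 0.74, q = 0.000328, authors' deposited table). Plin2, a coat protein of lipid droplets, fell from 311 to 104 FPKM, and Pdk4, which restrains pyruvate oxidation, from 52.2 to 19.9 (q = 8.94e-07 and 0.0330, authors' deposited table). The call of Pdk4 was lost after centring. The list's median was 0.55.

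**Figure D4:**
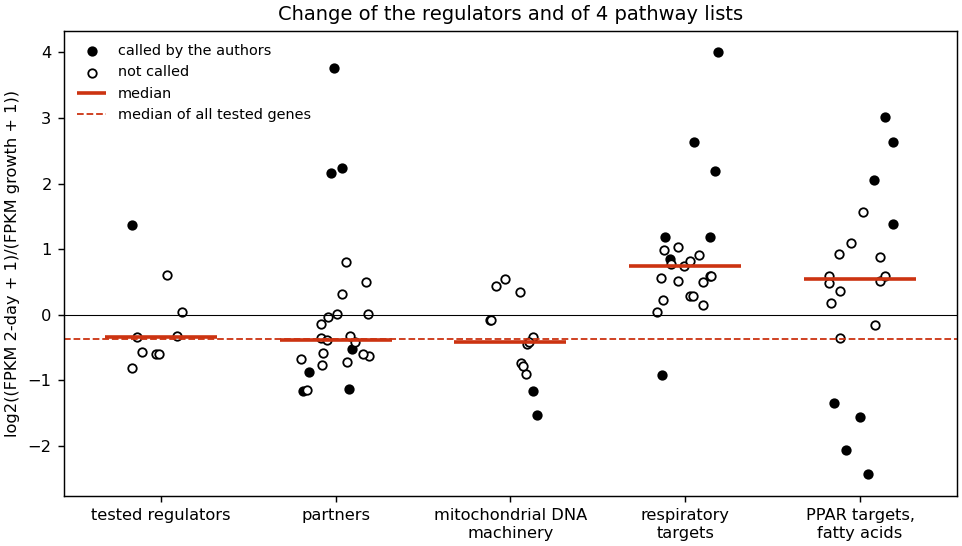
Change of each tested gene, as log2((FPKM 2-day + 1)/(FPKM growth + 1)), for the regulators and 4 pathway lists; filled points were called by the authors, red bars are list medians and the dashed line is the median of all tested genes, -0.37. Regulators, partners and the mitochondrial DNA machinery lie with medians of -0.34, -0.38 and -0.41, and respiratory and PPAR targets with medians of 0.74 and 0.55.

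MyoD peaks lay at 5 of the 10 regulators, counting a peak where its summit fell in the gene's locus (mm9, as merged in the deposited expression table) or within 10 kb. Over all tested genes 38.8% had such a peak, and 57.2% of those with a locus 0.8 to 1.25 times as long as that of Ppargc1b. Loci of the 5 regulators with a peak ran from 68716 bp (Ppard) to 606095 bp (Esrrg). Those of the 5 without ran from 12817 bp (Tfam) to 113477 bp (Ppargc1a), so locus length differs along with the count. The list of peaks came from 1 call, with 4049890 unique ChIP tags of 8637045 and 4371189 unique control tags of 9129012, and tags, fold enrichment and false discovery rate are the authors' values for each peak. Ppargc1b had 7 peaks, Esrrg 3, and Esrrb, Ppard and Pparg 1 each. Ppargc1a, Esrra, Nrf1, Tfam and Ppara had none. Those 13 peaks had a median of 21 tags and 15.0-fold enrichment, beside 14 tags and 15.3-fold over all 10756 peaks. Of the 13, 4 had a false discovery rate of at most 5%, 3 of them at Ppargc1b, and 19.4% of all peaks did. Of the tested genes in the pathway lists, 15 of 25 partners, 6 of 13 mitochondrial DNA genes, 9 of 23 respiratory targets and 9 of 20 PPAR targets had a peak by the same count. The count of respiratory targets includes Cox4i1, whose merged locus spans 4435365 bp and holds 93 peaks. It also includes Cox6a2 and Atp5b, with 1 peak each in loci of 69441 and 70350 bp. Tfb1m, a mitochondrial DNA gene, had 3 in a locus of 231141 bp. The partners Ncor1, Ncoa1 and Ncoa2 had 1, 1 and 3 in loci of 234821, 236698 and 234979 bp. Whether peaks in such loci belong to these genes was not tested.

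Ppargc1b had the most peaks of the 10, with all 7 summits inside its locus (chr18:61457790-61560085). Along the locus from its lowest coordinate the peaks held 9, 20, 26, 31, 42, 43 and 28 tags. Their fold enrichments, in the same order, were 18.7, 13.7, 10.6, 24.0, 26.2, 9.99 and 9.95. The highest by fold was chr18:61539780-61540373, with 42 tags, more than 95.6% of all peaks, and a false discovery rate of 3.26%. The 2 peaks nearest the upper end had summits 5563 and 3297 bp inside it. At least 7 peaks were found at 1.43% of all tested genes, and at 1.14% of the 1318 tested genes whose locus was 0.8 to 1.25 times as long as that of Ppargc1b, of which 57.2% had at least 1 peak. The locus is shared with the tested gene AC116595.1, which the expression table lists at 0 and 26.9 FPKM with no call, and the same peaks count for it. RNA of Ppargc1b itself was at 7.27 and 4.60 FPKM, not called.

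Esrrg, the regulator called higher, had 3 peaks within its long locus (chr1:189432670-190038764), 226, 292 and 327 kb from its 5′ end. They were small, with 7, 8 and 14 tags where the lowest of all peaks was 7, fold enrichments of 15.0, 23.2 and 7.87 and false discovery rates of 14.7%, 20.1% and 19.4%. Esrrb had 1 peak, chr12:87824331-87824714, 122 kb from its 5′ end, with 21 tags, 15.4-fold enrichment and a false discovery rate of 3.44%.

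At Ppard and Pparg the single peak sat just before the 5′ end. Such a summit, in the 500 bp before the locus, was found at 3.66% of tested genes whose strand was known. The Ppard peak (chr17:28368924-28369818, mm9) had its summit 221 bp before the locus start, with 25 tags, 13.1-fold enrichment and a false discovery rate of 21.7%. Def6, a tested gene within 10 kb that fell from 16.4 to 3.15 FPKM (q = 0.000545, authors' deposited table), counts the same peak. The Pparg peak (chr6:115310933-115311193, mm9) had its summit 211 bp before the locus start, with 8 tags, 15.0-fold enrichment and a false discovery rate of 14.2%.

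**Figure D5:**
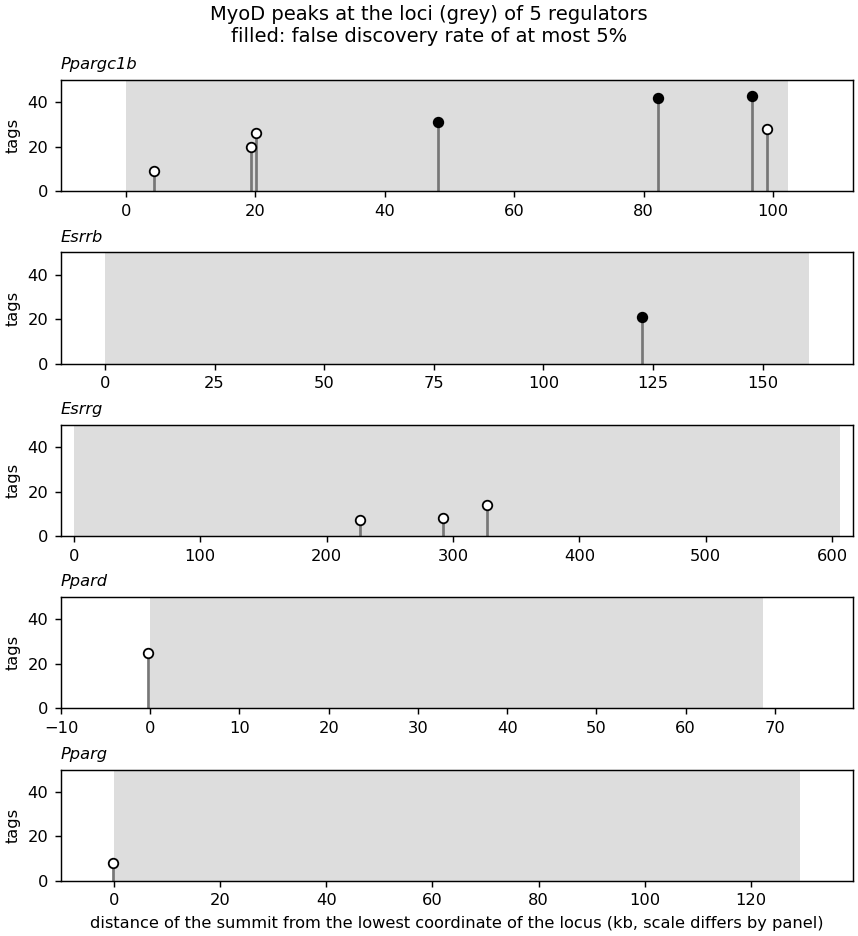
MyoD peaks at the 5 regulators that had any, drawn as tags per peak against the distance of the summit from the lowest coordinate of the locus (kb), with the locus in grey and filled points for a false discovery rate of at most 5%. Peaks spread over Ppargc1b with up to 43 tags, those of Esrrg hold 7 to 14, and those of Ppard and Pparg stand at the edge of the locus.

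In the Ppard sequence printed above, CAGCTG, the E-box that MyoD binds well, began 226 and 175 bases before the RefSeq start. A pair or more of CAGCTG was found in 1.26% of the 32851 RefSeq windows of that length, and at least 1 in 13.0%. The peak is placed in mm9 and the sequence in GRCm38.p6, and positions were not converted between builds, so the summit and the E-boxes cannot be laid on each other. Of the 3 Pparg windows, the first held no CANNTG, the second had CAGGTG at 247 bases and the third CAACTG at 173, and 66.2% of all windows held at least 1 CANNTG. Which of these starts lies nearest the Pparg peak was not determined. Searches covered both strands, and CAGCTG and CAGGTG are forms of CANNTG, so their matches overlap.

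The Ppargc1a window held 6 E-boxes of any form, and 0.274% of windows held 6 or more. Of the 6, 2 were CAGGTG on either strand, CACCTG at 217 and CAGGTG at 63 bases before the start. A pair or more of CAGGTG was found in 2.06% of windows. The nearest MyoD summit lay 40.4 kb beyond the Ppargc1a locus, with 16 tags and a false discovery rate of 22.0%. For Esrra, Nrf1 and Tfam the nearest summits were 54.4, 52.3 and 54.2 kb away, and for Ppara 76.6 kb. The Esrra window held CACCTG at 57 bases and GCATGCGC at 34 bases before the start, and 2.26% of windows held the latter on either strand. The full NRF1 palindrome, which is GCATGCGC with GC before it and overlaps the core on both strands, stood in the window of Ppara at 31 bases, as in 0.782% of windows. None of the 16 windows of these genes held AAGGTCA, the core of the ERR element, found in 4.08% of windows. The hexamer AGGTCA, the core that nuclear receptors share and part of the ERR core, stood at 28 bases in the first Pparg window and at 9 in another, and in 14.0% of all windows. The printed Esrrg window had 1 E-box, CATTTG.

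The count of bound regulators depended on the definition of a peak. Counting only summits inside the locus, it was 3 of 10 (27.5% of tested genes), and within 50 kb it was 6 (59.9%). Peaks of at least 20 tags left 3 (18.3%), and those with a false discovery rate of at most 5% left 2, Ppargc1b and Esrrb (11.7%).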

How the data were processed

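RNA of 2 samples and MyoD ChIP of 1 sample were used, 1 per group. FPKM were deposited by the authors in a Cuffdiff gene table, and the submitters' processing notes also name CASAVA 1.7.0, MACS 1.3.7 and mm9. The table was deposited in 2 identical copies, and 1 was used. P-values and q-values of that test are as deposited, and recomputing q with the Benjamini-Hochberg method over the 15966 tested genes matched within 1.67e-06. Peaks were called with MACS at a p threshold of 1.00e-05, per the file headers. Tag counts, the p score, the fold enrichment ratio and the false discovery rate in percent are the authors', per the file headers. The content of the ChIP control and the RNA normalization setting count as not given in the sources used here.

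From these, the SE (log2 fold change over test statistic), 95% normal intervals, centred p-values and distances to summits were computed (Python 3.11.15, scipy 1.17.1). Locus starts count from 0 in the table, since 3675 loci then match a RefSeq gene length, against 331 otherwise, and are printed from 1. Medians used genes with a mean of at least 1 FPKM. Listed genes were found by symbol (117) or by gene ID (3). Named genes were all members and, per list, up to 4 called rises and 4 called falls by size among genes reaching 1 FPKM, with the 3 highest where fewer than 4 were called. Paralogues of called genes, genes called after centring alone and neighbouring genes were singled out after their values were seen. So were the printed promoter windows and the motif matches described, out of several motifs searched in 16 windows. The share of windows with 6 or more E-boxes uses the count seen at Ppargc1a. The members and lists were chosen with earlier results of these data known. Code was tested on simulated data.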

Additional observations from a re-analysis of the deposited data

How the results depend on the processing

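No paired analysis was possible because each condition had 1 sample, and for the same reason no replicate could be left out. Centring on the median of tested genes moved several counts: regulators called higher went from 1 to 2, partners from 3 higher and 4 lower to 5 and 0, mitochondrial DNA genes from 2 lower to 1, respiratory targets from 6 higher and 1 lower to 11 and 0, and PPAR targets from 4 higher to 9. Over all tested genes the share of calls that were higher went from 27.3% to 49.3%, which the centring partly sets. A q of at most 0.01 was met by 11.1% of tested genes with a lower value and 4.68% with a higher one. It left 1 partner and 1 mitochondrial DNA gene called lower, and 3 PPAR targets called higher and 3 lower. Testing only genes with a mean of at least 1 FPKM changed none of these counts. Regulators with a MyoD peak went from 5 to 3 inside the locus, 3 with at least 20 tags and 2 at a false discovery rate of at most 5%, and to 6 within 50 kb. Of the regulators' log2 changes, only that of Esrrg moved by more than its SE with the pseudocount. The precision of the RNA values limits the calls: Ppara was left untested, and the change needed for a call ran from 0.67 on the log2 scale for Nrf1 to 1.99 for Esrrg. The depth of the RNA libraries is unknown.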
